A study of Homo sapiens with 24 samples.

Results

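Mitochondrial ribosomal protein genes were taken as the protein-coding genes whose symbol is MRPL or MRPS followed by a number, with or without a final A or B. The rule used names only and no measured value. It found 77 genes among the 60230 in the table, 49 named MRPL and 28 named MRPS, and all 77 passed the low-count filter that kept 18242 genes for testing. They were followed in tumors of AsPC-1, an established human pancreatic ductal adenocarcinoma cell line, grown as xenografts in mice. IK-595, a molecular glue that holds MEK in complex with RAF, was given by mouth at 6 mg/kg as 3 doses, 1 every other day. The groups were IK-595 tumors taken 2, 4, 8, 24 and 48 h after the last dose, and tumors of mice given 3 doses of vehicle (5% DMSO and 95% PEG400) and taken at 2 h, with 4 animals in each group and 24 tumors in all. The vehicle was sampled at 2 h alone. At 4 to 48 h an effect of IK-595 thus cannot be told apart from an effect of the hours since dosing. All tumors came from 1 cell line.

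The mitochondrial ribosome translates the few mRNAs of the mitochondrial genome, all of which encode subunits of the respiratory chain or of ATP synthase. Its rRNAs are encoded in the mitochondrial genome, while all of its proteins are encoded in the nucleus, made on cytosolic ribosomes and imported. Some of these proteins have a counterpart in bacterial ribosomes and others are found in mitochondria only. Of the 77 genes, 50 encode proteins of the large subunit (29 shared with bacteria and 21 particular to mitochondria) and 25 encode proteins of the small subunit (15 shared and 10 particular to mitochondria). MRPL55 and MRPS36 were left without a class. MRPS30 and MRPS18A are named after the small subunit but sit in the large one.

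RNA was measured by poly(A)-selected paired-end sequencing, and total estimated counts per tumor ran between 10.5 and 20.6 M (M stands for 1e6). Human epithelial marker mRNAs were abundant throughout, KRT8 with a median of 4363 CPM (counts scaled to 1e6 per tumor), KRT19 with 2271 and EPCAM with 975.2, whereas KRT7 had 4.53. CD2, MS4A1 and ADIPOQ, which mark T cells, B cells and fat, were at 0 in all 24 tumors. Tumors stood apart in other ways. The IK-595 4 h tumor 2 held 29507 CPM of 10 fibroblast markers, while the other tumors held between 792 and 5266, and it had the lowest depth. The IK-595 2 h tumor 1 held the most muscle mRNA, with a sum of 4704 CPM over muscle, fat and blood markers, and 4 h tumor 4 (2628 CPM), 8 h tumor 2 (2856) and 24 h tumor 4 (3117) were also high. The IK-595 24 h tumor 1 had 27.0% of its counts on mitochondrially encoded mRNAs.

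The 77 genes differed widely in level per length of transcript. On the TPM scale, in which counts are divided by transcript length and scaled to the same sum in every tumor, averaged over all 24 tumors, MRPL41 (175 TPM), MRPS6 (140) and MRPS34 (131) were the most abundant and MRPL50 (5.05), MRPL57 (8.48) and MRPS31 (9.88) the least abundant, around a median of 34.9 TPM. Together the genes took 0.241% of all counts. For MRPS31 and MRPL45 the level is less certain, because annotated pseudogenes held 51.8% and 16.4% as many counts as the genes themselves. In all, 33 of the 77 have an annotated pseudogene and 48 overlap another annotated gene.

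After IK-595 the mitochondrial ribosomal protein genes were lower on average at every time, with the lowest level at 8 h. The mean over the 77 genes of log2 CPM was 4.97 ± 0.17 in vehicle tumors, and 4.69 ± 0.10, 4.70 ± 0.15, 4.50 ± 0.12, 4.56 ± 0.11 and 4.68 ± 0.07 at 2, 4, 8, 24 and 48 h after IK-595 (SD, n = 4 each). The single tumors had means of 4.63, 4.57, 4.37 and 4.44 at 8 h and 4.50, 4.52, 4.72 and 4.50 at 24 h, against 5.15, 5.03, 4.75 and 4.95 in vehicle. All 8 h and all 24 h tumors lay below the lowest vehicle tumor, which was vehicle tumor 3, while single tumors at 2, 4 and 48 h lay above it. The summed TPM of the 77 genes was also lowest at 8 h, with 4248 ± 379 in vehicle tumors and 3131 ± 139, 3514 ± 431, 2781 ± 287, 2998 ± 472 and 3299 ± 151 at the 5 IK-595 times in order (SD, n = 4 each). Depth moved with the groups as well, at 11.3 to 14.9 M counts in 8 h tumors against 19.7 to 20.6 M in vehicle tumors, and its part in the falls was not tested. These are bulk tumors, so fewer cells of a type and less RNA per cell cannot be told apart.

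**Figure D1:**
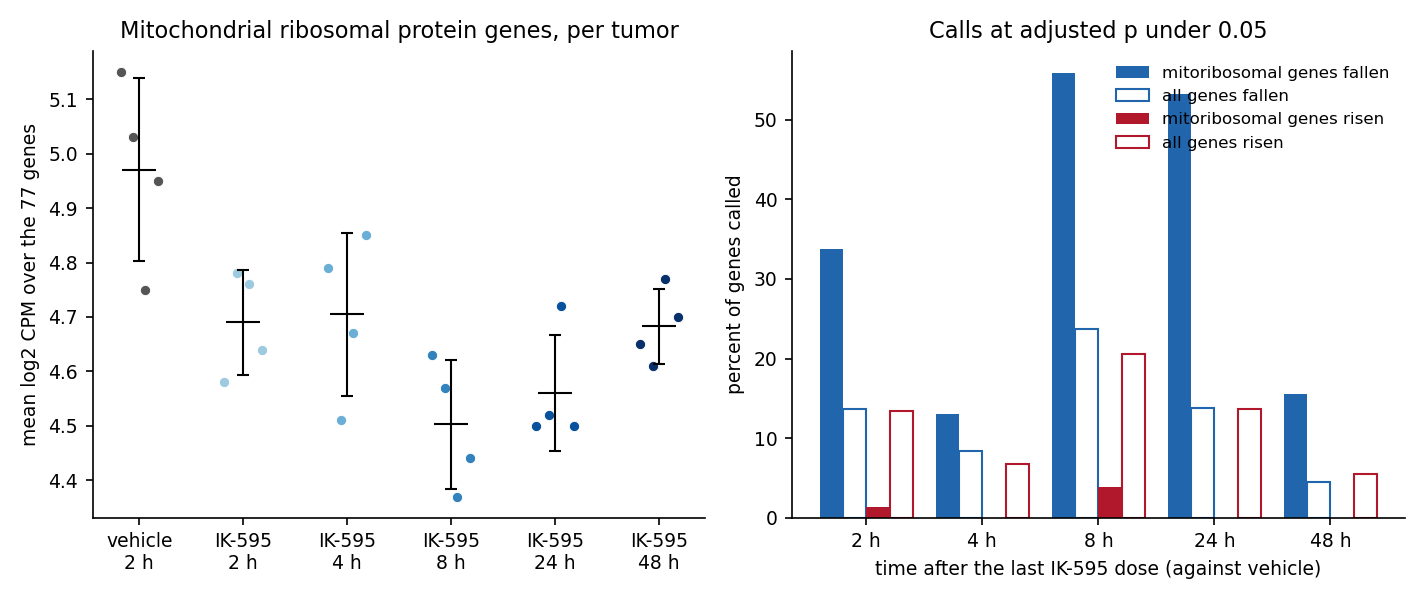
Left, the mean log2 CPM over the 77 genes in each tumor (points), with the mean and SD of the 4 tumors of each group (bars), for vehicle and for IK-595 in order of time. Right, the percent of the 77 genes (filled bars) and of all 18242 genes tested (open bars) called fallen or risen at each IK-595 time against vehicle. The filled bars for falls reach 55.8% at 8 h and 53.2% at 24 h, and the filled bars for rises do not pass 3.90%.

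Gene by gene, each IK-595 time was compared with vehicle by edgeR's quasi-likelihood test, and a gene was called at a Benjamini-Hochberg adjusted p under 0.05 over all 18242 genes. The 5 comparisons share the same 4 vehicle tumors. At 2 h, 26 of the 77 genes fell (33.8%, against 13.6% of all genes) and 1 rose (1.30%, against 13.4%). At 4 h, 10 fell (13%, against 8.39%) and 0 rose (against 6.74% of all genes). At 8 h, 43 fell (55.8%, against 23.7%) and 3 rose (3.90%, against 20.6%). At 24 h, 41 fell (53.2%, against 13.8%) and 0 rose (against 13.7%). At 48 h, 12 fell (15.6%, against 4.46%) and 0 rose (against 5.52%). Beside these counts of 0 by edgeR, the rises at an unadjusted p under 0.05 numbered 1 at 4 h, 1 at 24 h and 0 at 48 h, and DESeq2 and limma-voom called 0 rises at each of these times. The share of fallen genes in this fit was above the share in all genes at each time, by the least margin at 4 h. At 4 h it was below that of all genes without vehicle tumor 1 (3.90% of the 77, against 6.12% of all genes) or 4 h tumor 3 (6.49%, against 6.75%), with only the 2 groups fitted (5.19%, against 7.11%), on the log2(TPM + 1) scale (3.90%, against 4.97%) and on the log2(TPM + 0.1) scale (3.90%, against 4.83%). At 48 h it was so without vehicle tumor 1 (1.30%, against 2.13%). The median log2 fold change of the 77 was -0.30, -0.26, -0.52, -0.38 and -0.34 at 2, 4, 8, 24 and 48 h, beside medians over all genes of 0.05, 0.03, 0.07, 0.06 and -0.01.

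Most calls at 8 h did not rest on 1 tumor. Of the 43 falls at 8 h, 38 kept an adjusted p under 0.05 when any of the 8 tumors compared was left out. At 24 h, 26 of 41 did so, at 2 h 19 of 26, at 4 h 2 of 10 and at 48 h 1 of 12. The number of falls at 24 h was 26 without vehicle tumor 1, which had the highest level of these genes. At 48 h it was 1, 3 and 20 without vehicle tumors 1, 2 and 3, and 2 without 48 h tumor 2 or 4. At 4 h it was 3, 5, 6 and 5 without vehicle tumors 1, 2, 3 and 4, and 6, 6 and 5 without 4 h tumors 1, 2 and 3. The single rise at 2 h did not pass when vehicle tumor 1, vehicle tumor 3, 2 h tumor 2 or 2 h tumor 3 was left out, and without 2 h tumor 1 there were 3 rises. At 8 h 1 rise was left without 8 h tumor 3, and at 24 h there was 1 without 24 h tumor 3. Because all groups share 1 fit, tumors of other groups also moved some counts. The falls at 4 h numbered 6 without 24 h tumor 2, 24 h tumor 4 or 48 h tumor 3, the falls at 48 h 20 without 24 h tumor 1, and the rises at 8 h 5 without 24 h tumor 1. The rises at 2 h numbered 3 without 4 h tumor 2 or 48 h tumor 4, and 2 without 4 h tumor 1 or 24 h tumor 1, 2 or 3. For 37 of the 77 genes no 8 h tumor reached the lowest vehicle tumor, which held for 23.8% of all genes. This number was 28 for the 2 h tumors (16.9% of all genes), 14 for 4 h (11.5%), 28 for 24 h (13.5%) and 24 for 48 h (9.26%). By an F test over the 5 times in edgeR, 43 of the 77 (55.8%) differed from vehicle at some time, a share near the 49.8% of all genes that did.

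The calls came from both subunits. At 8 h, 27 of 50 large subunit genes and 16 of 25 small subunit genes fell, with median log2 fold changes of -0.48 and -0.71. At 24 h the counts were 26 of 50 and 15 of 25, at 2 h 16 of 50 and 10 of 25, at 4 h 6 of 50 and 4 of 25, and at 48 h 10 of 50 and 2 of 25. Of all genes, 13.6, 8.39, 23.7, 13.8 and 4.46% fell at 2, 4, 8, 24 and 48 h. The shares nearest to these were 12% of the large subunit genes at 4 h and 8% of the small subunit genes at 48 h. Proteins shared with bacteria and proteins particular to mitochondria also both took part: at 8 h 17 of 29 and 10 of 21 of the large subunit, and 9 of 15 and 7 of 10 of the small subunit, fell. The differences between these classes were not tested.

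**Figure D2:**
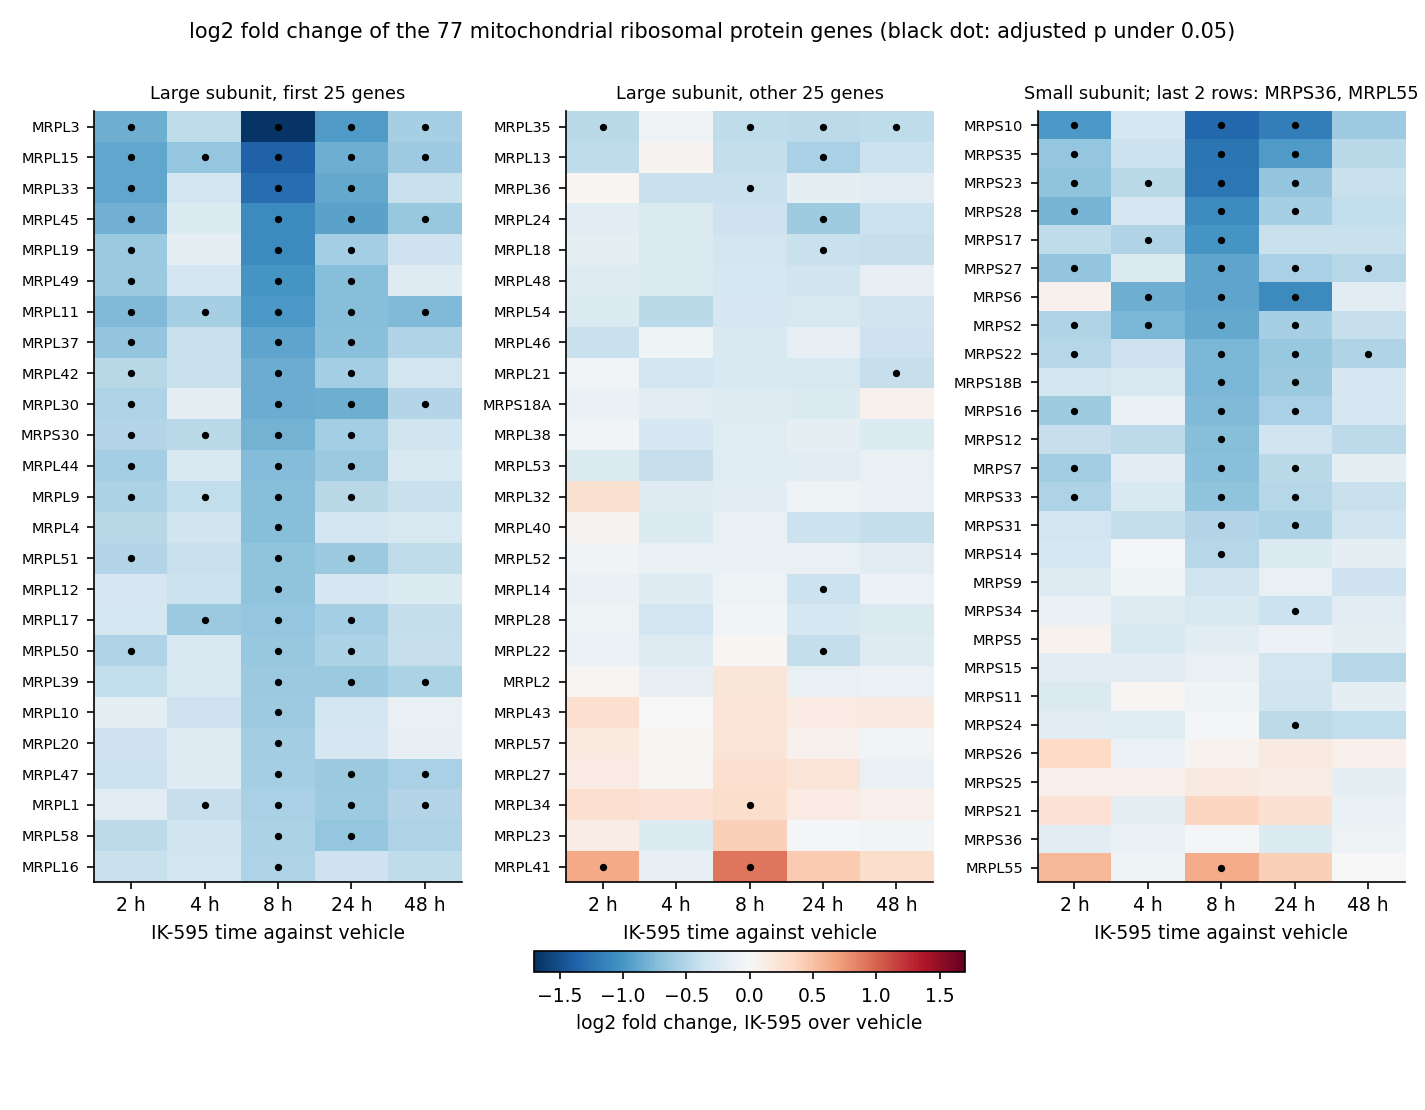
The log2 fold change of IK-595 over vehicle for each of the 77 genes (rows) at the 5 times (columns), ordered within a subunit by the value at 8 h, with a black dot where the adjusted p was under 0.05. Blue cells are lower in IK-595 tumors and red cells higher. The dots lie mostly in the 8 h and 24 h columns, and the dots on red cells are MRPL41 at 2 and 8 h and MRPL55 and MRPL34 at 8 h.

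MRPL3 had the largest fall. It encodes the counterpart of bacterial ribosomal protein L3, which folds towards the peptidyl transferase centre of the large subunit (ENSG00000114686.9, chr3:131462212-131502983, minus strand, GENCODE 29 on GRCh38). Its CPM was 30.4, 21.6, 18.5 and 20.2 in the IK-595 8 h tumors, against 87.4, 74.3, 59.0 and 67.1 in the vehicle tumors. The groups did not overlap, and every 8 h tumor was far below the lowest vehicle tumor. The log2 fold change at 8 h was -1.66 ± 0.17 (SE, edgeR adjusted p = 1.45e-07). MRPL3 also fell at 2 h by 0.84 (edgeR adjusted p = 0.000986), at 24 h by 0.96 (edgeR adjusted p = 0.000238) and at 48 h by 0.56 (edgeR adjusted p = 0.0284, lost on leaving out any of 4 of the 8 tumors) on the log2 scale. At 4 h its log2 fold change was -0.44 and did not pass (edgeR adjusted p = 0.0733).

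MRPS10, MRPL15 and MRPL33 followed in size at 8 h. MRPS10 encodes the counterpart of bacterial S10 in the head of the small subunit (ENSG00000048544.6, chr6:42206801-42217865, minus strand). Its CPM was 28.9, 21.6, 15.0 and 16.2 in the 8 h tumors, against 63.4, 57.2, 41.5 and 43.8 in vehicle tumors, with no overlap. It fell by 1.33 ± 0.24 at 8 h (edgeR adjusted p = 0.000109) and, at 24 h, by 1.17 ± 0.23 (edgeR adjusted p = 0.000919), the largest fall of any of the 77 at that time.

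MRPL15 (ENSG00000137547.9), the counterpart of bacterial L15, had 28.3, 22.3, 16.7 and 19.3 CPM in the 8 h tumors, against 65.6, 56.7, 47.3 and 54.6 CPM in vehicle tumors. It was called at all 5 times, with log2 fold changes of -0.88, -0.66, -1.37, -0.84 and -0.62 at 2, 4, 8, 24 and 48 h, and at every time all IK-595 tumors were below all vehicle tumors. The call at 48 h (edgeR adjusted p = 0.0299) was lost on leaving out any of 5 of the 8 tumors, while those at 2, 8 and 24 h were not lost on leaving out any. MRPL33, the counterpart of bacterial L33, had 10.3, 7.54, 7.10 and 6.82 CPM in the 8 h tumors, against 22.6, 17.7, 21.6 and 16.4 CPM in vehicle tumors. The fall was 1.30 ± 0.22 on the log2 scale (edgeR adjusted p = 5.54e-05). MRPL33 lies within a span that overlaps BABAM2 on the same strand, so that reads of the 2 genes may not be fully separated.

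MRPL11 was the other gene called at all 5 times. It encodes the counterpart of bacterial L11, at the base of the stalk to which translation factors bind. Its CPM was 21.1, 15.1, 14.8 and 16.2 in the 8 h tumors and 19.4, 20.5, 18.6 and 20.3 in the 48 h tumors, against 39.2, 35.4, 25 and 33.2 in vehicle tumors. No tumor at 8 h or 48 h reached the lowest vehicle tumor. The log2 fold change was -0.98 ± 0.15 at 8 h (edgeR adjusted p = 1.48e-05) and -0.75 ± 0.14 at 48 h (edgeR adjusted p = 0.00145), and MRPL11 was the 1 gene of the 77 whose 48 h call held on leaving out any of the 8 tumors. The other proteins of the stalk were called once each as tested. MRPL10, which anchors the stalk, fell at 8 h by 0.62 (edgeR adjusted p = 0.00237), and MRPL12, which forms it, fell at 8 h by 0.68 (edgeR adjusted p = 0.0212), a call lost without vehicle tumor 1 or 2. In a setting chosen after the data were seen, a trend of each tumor on GC content and length was removed. There MRPL12 fell at 2, 8 and 24 h (log2 fold changes -0.70, -1.26 and -0.60), and MRPL10 at 8 h only (-0.62).

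Other large subunit genes differed in when they were called. MRPL45, which has a fold like that of the import protein TIM44 and lies near the exit of the peptide tunnel, had 15.5, 17.2, 12.5 and 16.8 CPM in the 8 h tumors, against 35.3, 30.0, 31.6 and 33.9 CPM in vehicle tumors. The 2 groups did not overlap at any of the 5 times, and calls were made at 2, 8, 24 and 48 h, with log2 fold changes of -0.81, -1.08, -0.91 and -0.64, the last of them lost on leaving out any of 4 of the 8 tumors. Its 4 h value, -0.23, did not pass (edgeR adjusted p = 0.386). MRPL23, also at the tunnel exit, passed at no time and had 0.41 at 8 h. MRPL17, near the exit as well, fell at 4, 8 and 24 h (log2 fold changes -0.63, -0.65 and -0.58). MRPL47, the counterpart of bacterial L29, fell at 8, 24 and 48 h (-0.58, -0.63 and -0.56), the 48 h call being lost on leaving out any of 4 of the 8 tumors. These MRPL47 calls were all lost with the GC and length trend removed, a setting chosen after the data were seen (edgeR adjusted p = 0.0531, 0.0795 and 0.191). MRPL44, a protein with a fold like that of RNase III, fell at 2, 8 and 24 h (-0.58, -0.74 and -0.63), and its 24 h call was lost without vehicle tumor 1 and its 2 h call on leaving out any of 5 of the 8 tumors. MRPL58, a peptidyl-tRNA hydrolase that became part of the large subunit, fell at 8 and 24 h (-0.54 and -0.66), and both calls were lost without vehicle tumor 1, the 8 h call also without vehicle tumor 2 or 8 h tumor 4. MRPS30 fell at 2, 4, 8 and 24 h (-0.50, -0.46, -0.81 and -0.57), the 4 h call being lost on leaving out any of 7 of the 8 tumors, whereas MRPS18A passed at no time as tested (between -0.24 and 0.07). With the GC and length trend removed MRPS18A fell at 8 h (-0.53, edgeR adjusted p = 0.0246) and MRPL58 also at 2 h (-0.56). In that setting MRPS30 and MRPL44 did not pass at 2 h (edgeR adjusted p = 0.171 and 0.0581).

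In the small subunit MRPS35 and MRPS23, both particular to mitochondria, fell most after MRPS10. MRPS35 had 49.1, 40.5, 31.2 and 36.8 CPM in the 8 h tumors, against 109.7, 95.8, 78.4 and 87.8 CPM in vehicle tumors, and fell by 1.24 ± 0.17 (edgeR adjusted p = 6.97e-06). MRPS23 had 16.6, 13.8, 13.1 and 11.1 CPM in the 8 h tumors, against 35.4, 33.2, 27.2 and 32 CPM in vehicle tumors, and fell by 1.23 ± 0.15 (edgeR adjusted p = 1.33e-06). Neither pair of groups overlapped. MRPS2, the counterpart of bacterial S2, fell at 2, 4, 8 and 24 h (log2 fold changes -0.51, -0.77, -0.87 and -0.57), the 2 h call being lost on leaving out any of 3 of the 8 tumors. MRPS12, at the decoding centre, fell at 8 h (-0.72, edgeR adjusted p = 0.00385). With the GC and length trend removed MRPS12 also fell at 2, 24 and 48 h (-0.61, -0.47 and -0.54), and MRPS2 also at 48 h (-0.55). MRPS18B fell at 8 and 24 h (-0.78 and -0.64). MRPS36, since assigned to the 2-oxoglutarate dehydrogenase complex rather than the ribosome, passed at no time (between -0.23 and -0.02). Both abundant and scarce genes were among the fallen. As tested, the abundant MRPS34 fell at 24 h only (-0.37, edgeR adjusted p = 0.038, lost without 6 of the 8 tumors in turn). With the GC and length trend removed MRPS34 fell at 2, 8 and 24 h (-0.53, -0.83 and -0.63). The scarce MRPL50 fell at 2, 8 and 24 h (-0.53, -0.64 and -0.54), and with that trend removed at 8 h only (-0.37). The scarce MRPL57 passed at no time in either setting (between -0.05 and 0.22 as tested).

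MRPS6 had a time course of its own. It encodes the counterpart of bacterial S6 and was among the 3 most abundant of the 77. Its CPM at 2 h was 154.6, 177.2, 151.1 and 206.0, against 113.0, 152.9, 231.1 and 155.9 in vehicle tumors, and these groups overlapped fully (log2 fold change 0.08 ± 0.22, edgeR adjusted p = 0.827). At 24 h it had 71.3, 98.7, 62.6 and 76.9 CPM, below every vehicle tumor. MRPS6 fell at 4, 8 and 24 h by 0.83, 0.89 and 1.08 on the log2 scale, and its 48 h value was -0.18 (edgeR adjusted p = 0.701). The call at 4 h was lost without vehicle tumor 3. SLC5A3, a myo-inositol transporter gene, lies within MRPS6 on the same strand, so the counts of the 2 genes may not be fully separated. SLC5A3 had log2 fold changes of -0.51, -0.86, -1.80, -1.58 and -0.13 at 2, 4, 8, 24 and 48 h, and passed at 8 and 24 h (edgeR adjusted p = 0.000384 and 0.00249).

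**Figure D3:**
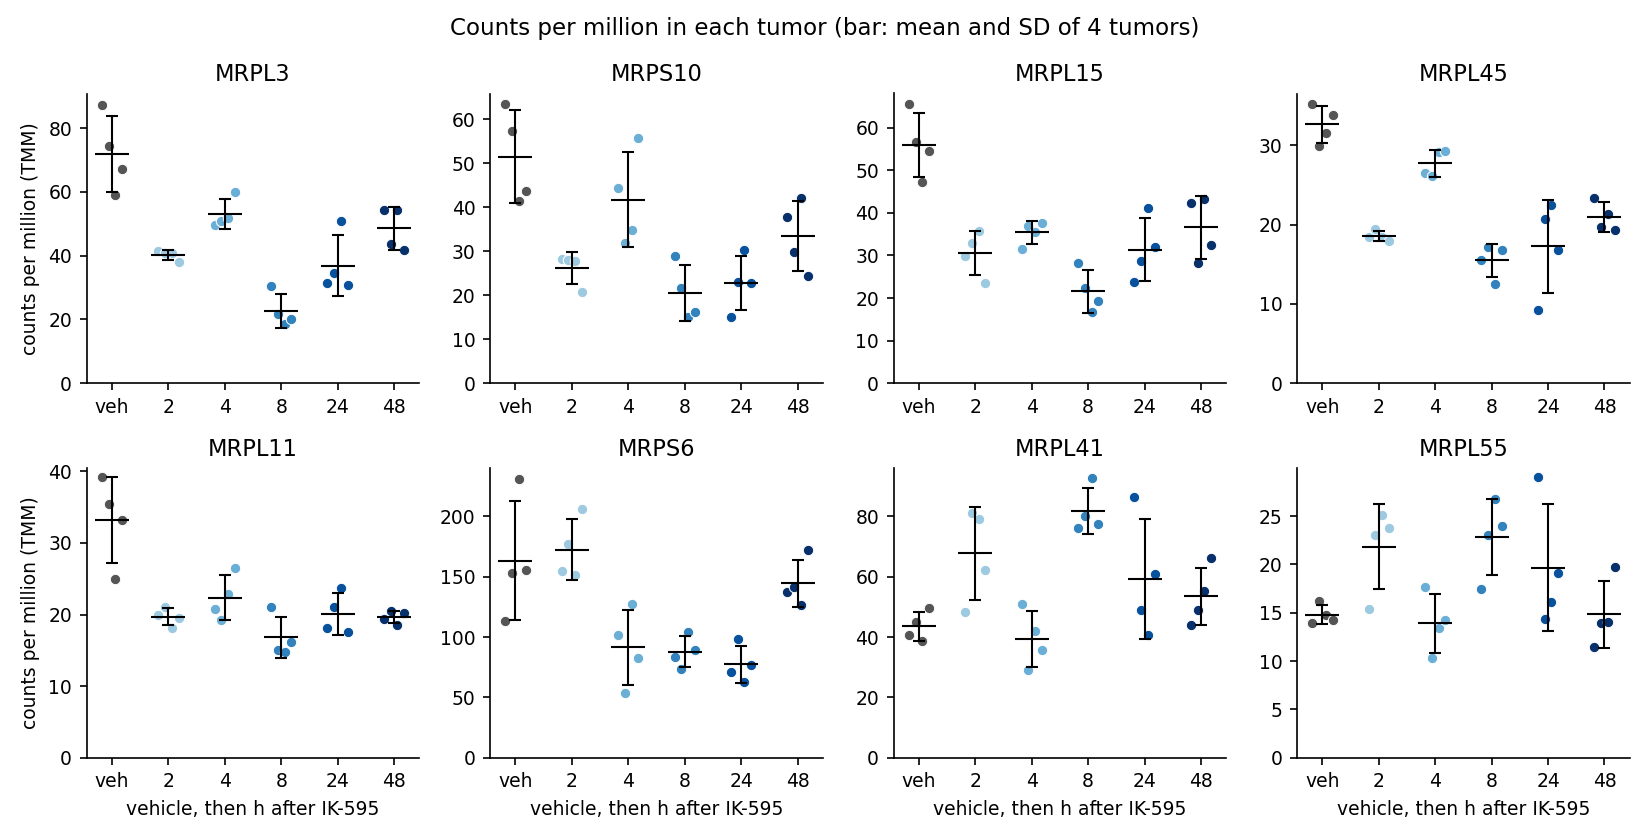
CPM, scaled by edgeR's TMM factors, of 8 of the genes in each of the 24 tumors (points), with the mean and SD of each group (bars), for vehicle (veh) and then for 2, 4, 8, 24 and 48 h after IK-595. MRPL3, MRPS10, MRPL15, MRPL45 and MRPL11 are lowest at 8 h, MRPS6 is low at 4, 8 and 24 h, and MRPL41 and MRPL55 are high at 2 and 8 h.

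MRPL41, MRPL55 and MRPL34 were the 3 genes called risen, and these calls were lost when a trend on GC content and length was removed. GC content and length were removed together, and the part of each was not tested. MRPL41, a large subunit protein particular to mitochondria, had 76.0, 80.3, 92.9 and 77.6 CPM in the 8 h tumors, against 40.7, 44.9, 38.8 and 49.8 CPM in vehicle tumors, with no overlap. It rose by 0.91 ± 0.21 at 8 h (edgeR adjusted p = 0.00112) and by 0.64 ± 0.20 at 2 h (edgeR adjusted p = 0.0245), where 1 IK-595 tumor lay among the vehicle tumors and the call was lost on leaving out any of 4 of the 8 tumors. MRPL55 had 17.5, 23.1, 26.8 and 24.0 CPM at 8 h, against 14.0, 16.2, 14.7 and 14.3 CPM in vehicle tumors, and rose by 0.63 ± 0.21 (edgeR adjusted p = 0.0203). MRPL34, the counterpart of bacterial L34, rose by 0.30 ± 0.11 at 8 h (edgeR adjusted p = 0.0341) in CPM, a call lost on leaving out any of 7 of the 8 tumors, while on the log2(TPM + 1) and log2(TPM + 0.1) scales its value was -0.01. The longest transcript of MRPL41 has a GC content of 71.9%, that of MRPL55 59.9% and that of MRPL34 55.2%, beside a median of 44.9% for the 43 genes that fell at 8 h and 49.2% for the 31 that did not pass. With a trend of each tumor on GC content and length removed, a setting chosen after the data were seen, the 8 h log2 fold change was 0.11 for MRPL41 (edgeR adjusted p = 0.387), 0.32 for MRPL55 (edgeR adjusted p = 0.119) and 0.03 for MRPL34 (edgeR adjusted p = 0.83). No rise of these 3 genes was called in that setting, and MRPL27 (0.54) and MRPS21 (0.43) were called risen at 8 h instead.

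Of the 43 falls at 8 h, 37 kept their call with the trend removed, 6 lost it and 12 other genes gained one. In that setting 26, 13, 49, 38 and 8 of the 77 genes fell at 2, 4, 8, 24 and 48 h (33.8, 16.9, 63.6, 49.4 and 10.4%, against 12.4, 9.65, 22.1, 13.9 and 4.25% of all genes). MRPL3 fell at 8 h by 1.40 (edgeR adjusted p = 1.57e-07), MRPL15 by 1.31 and MRPS10 by 1.04 on the log2 scale. Across the 77 genes, the log2 fold change at 8 h had a Spearman correlation of 0.33 with the GC content of the longest transcript as tested, and of -0.20 with the trend removed. The corresponding correlations at 2 h were 0.38 and -0.26 and at 24 h 0.41 and -0.17. The points of each correlation are genes of the same 8 tumors and share their libraries, and genes are not independent replicates.

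**Figure D4:**
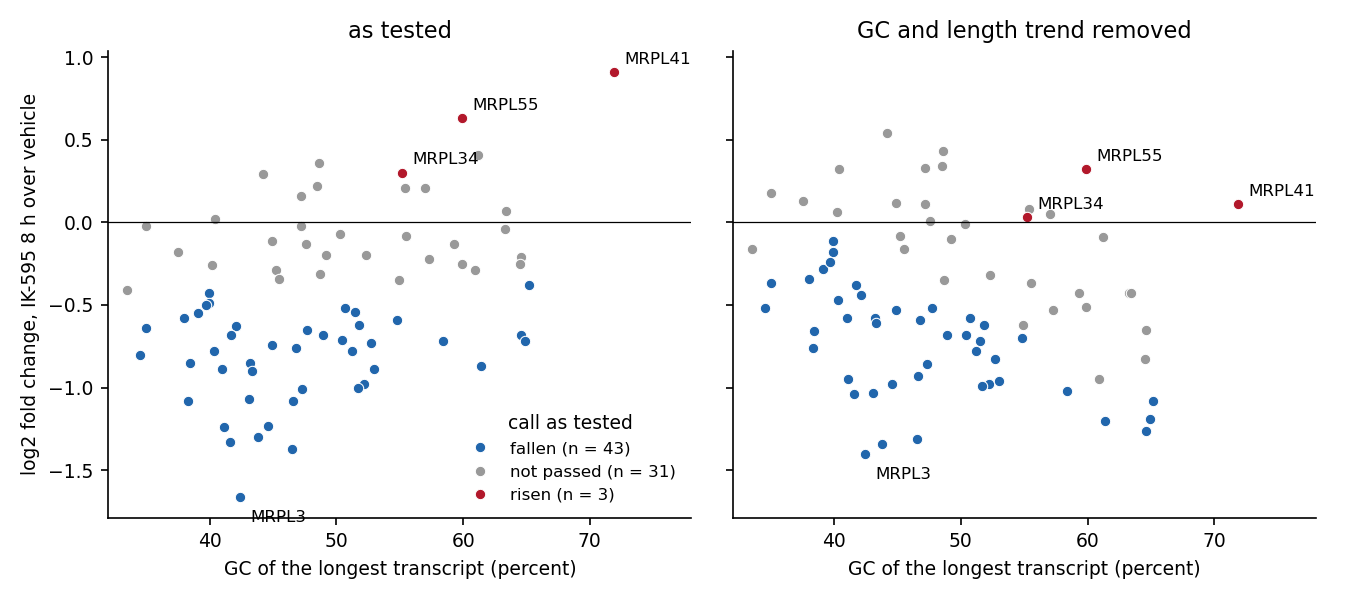
The log2 fold change of IK-595 at 8 h over vehicle for each of the 77 genes (points) against the GC content of its longest transcript, as tested (left) and with a trend of each tumor on GC content and length removed (right). Colors give the call as tested on both sides. MRPL41, at 71.9% GC, is at 0.91 on the left and at 0.11 on the right, while MRPL3 is at -1.66 on the left and -1.40 on the right.

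Consecutive IK-595 times were also compared directly, within the same fit of all 24 tumors. At 8 h against 4 h, 24 of the 77 genes fell (15.5% of all genes did) and 4 rose (11.6%). At 4 h against 2 h, 3 rose (6.89%) and 4 fell (9%). At 24 h against 8 h, 3 rose (5.30%) and 0 fell (1.58%), and at 48 h against 24 h, 1 rose (2.47%) and 0 fell (1.60%). Beside the counts of 0 falls by edgeR, 6 genes fell at 24 h against 8 h at an unadjusted p under 0.05 (2 by DESeq2, 0 by limma-voom), and 3 at 48 h against 24 h (0 by DESeq2 and by limma-voom). The falls at 8 h against 4 h numbered 14 without 4 h tumor 4, without 8 h tumor 3 or without 8 h tumor 4, and the rises 2 without 4 h tumor 2. The small counts of the other steps depended on single tumors. At 4 h against 2 h the rises numbered 0 without 2 h tumor 2 or 4 or 4 h tumor 4, 1 without 2 h tumor 3, 5 without 4 h tumor 3 and 6 without 2 h tumor 1. Of tumors outside the comparison, leaving out 24 h tumor 3 gave 10 rises, 24 h tumor 1 gave 9, vehicle tumor 3 gave 6, and vehicle tumor 1, 8 h tumor 3 or 48 h tumor 4 gave 5. The falls at 4 h against 2 h numbered 1 without 2 h tumor 2 or 3 or 4 h tumor 2 or 4 and 2 without 2 h tumor 4. At 24 h against 8 h the rises numbered 0 without 8 h tumor 4 or 24 h tumor 3, 1 without 8 h tumor 2 or 3 or 24 h tumor 4, and 10 without 24 h tumor 1, and the falls 2 without 8 h tumor 3, 3 without 24 h tumor 1 and 1 without 4 h tumor 2. At 48 h against 24 h the rises numbered 0 without 24 h tumor 1 or 4 or 48 h tumor 4, and 5 without 24 h tumor 3.

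MRPL3 showed the largest step between neighbouring times. Its CPM was 30.4, 21.6, 18.5 and 20.2 at 8 h, against 49.8, 51.0, 51.7 and 59.9 at 4 h, a log2 fold change of -1.23 ± 0.17 (edgeR adjusted p = 0.000724), and it kept its call on leaving out any of these 8 tumors. It then rose at 24 h against 8 h by 0.70 ± 0.17 (edgeR adjusted p = 0.0107), with 31.5, 34.7, 50.8 and 30.7 CPM at 24 h, a call lost without 8 h tumor 4 or 24 h tumor 3. MRPS10 and MRPL33 fell between 4 and 8 h by 1.03 and 0.97 (edgeR adjusted p = 0.00405 and 0.00349). MRPS6 fell at 4 h against 2 h by 0.91 (edgeR adjusted p = 0.00992) and rose at 48 h against 24 h by 0.90 (edgeR adjusted p = 0.0228). SLC5A3 had a log2 fold change of 1.45 in the last of these comparisons (edgeR adjusted p = 0.0234). MRPL41 fell at 4 h against 2 h by 0.78 and rose at 8 h against 4 h by 1.05, and without the GC and length trend the change at 8 h against 4 h was 0.24 (edgeR adjusted p = 0.0991).

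Promoter sequence was examined because many of these genes were lower together. The RefSeq table (GRCh38.p14) holds a window of 300 bases, 250 before and 50 after the start, for 68 of the 77 genes. Where a gene has several windows, as 11 of the 68 do, the first listed was used. Shown are MRPL3 and MRPS10, which had the largest falls at 8 and 24 h, MRPL45, a fallen gene with an E-box, and MRPL41, which had the largest rise, each 5′ to 3′ on the strand of the gene. Capitals mark a motif that was searched for: CCGGAAGT (ETS factors) in MRPL3, AAGATGGCG (YY1) in MRPS10 and the E-box CACGTG in MRPL45. MRPL41 holds none of these 3, and CCAAT was counted but is not capitalized.
MRPL3, chr3:131502922-131503221, minus strand: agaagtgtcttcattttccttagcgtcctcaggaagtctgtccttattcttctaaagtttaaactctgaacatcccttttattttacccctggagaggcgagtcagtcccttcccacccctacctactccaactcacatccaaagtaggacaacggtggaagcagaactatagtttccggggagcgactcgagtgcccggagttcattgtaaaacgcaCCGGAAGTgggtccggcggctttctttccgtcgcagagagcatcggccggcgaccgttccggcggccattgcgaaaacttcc
MRPS10, chr6:42217812-42218111, minus strand: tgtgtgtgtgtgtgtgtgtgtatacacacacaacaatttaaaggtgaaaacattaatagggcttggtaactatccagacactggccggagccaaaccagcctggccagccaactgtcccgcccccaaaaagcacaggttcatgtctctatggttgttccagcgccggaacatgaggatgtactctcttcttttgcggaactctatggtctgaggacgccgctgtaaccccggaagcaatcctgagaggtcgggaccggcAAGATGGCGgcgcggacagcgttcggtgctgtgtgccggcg
MRPL45, chr17:38296918-38297217, plus strand: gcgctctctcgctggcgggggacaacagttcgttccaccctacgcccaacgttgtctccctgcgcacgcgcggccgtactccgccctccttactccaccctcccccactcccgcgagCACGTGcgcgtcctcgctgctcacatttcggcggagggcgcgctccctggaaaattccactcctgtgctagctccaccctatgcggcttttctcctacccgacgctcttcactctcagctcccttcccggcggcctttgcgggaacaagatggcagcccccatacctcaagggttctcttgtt
MRPL41, chr9:137551629-137551928, plus strand: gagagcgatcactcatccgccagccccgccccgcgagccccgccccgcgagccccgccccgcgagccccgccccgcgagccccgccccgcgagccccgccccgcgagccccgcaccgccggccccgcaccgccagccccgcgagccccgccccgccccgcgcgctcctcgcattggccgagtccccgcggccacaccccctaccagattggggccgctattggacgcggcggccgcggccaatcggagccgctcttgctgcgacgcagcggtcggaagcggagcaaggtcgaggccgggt

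Motifs were counted on both strands in the 68 windows and in 27305 promoter windows, the first listed for each gene symbol. Overlaps between motifs were not removed. AAGATGGCG was in 13 of 68 windows (19.1%, against 1.85% of all), and CCGGAAGT in 11 of 68 (16.2%, against 4.44%). The E-box CACGTG, the motif of MYC and its partners among others, was in 5 of 68 (7.35%, against 7.43%): MRPL22, MRPL36, MRPL37, MRPL45 and MRPL49. GCATGCGC (NRF1) was in 5 of 68 (7.35%, against 3.27%), and CCAAT in 19 of 68 (27.9%, against 35.7%). Between the genes that fell at 8 h and the rest, AAGATGGCG was in 6 of 39 and 7 of 29 windows, CCGGAAGT in 6 of 39 and 5 of 29, and CACGTG in 4 of 39 and 1 of 29. These are counts of letters in a window, and no binding was measured.

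Genes that act with the mitochondrial ribosome were lower in part. The lists were chosen with earlier results of these data known, and 23.7% of all genes fell and 20.6% rose at 8 h, with a median log2 fold change of 0.07. Of 6 further ribosomal proteins that the symbol rule does not take, DAP3 (log2 fold change -0.71) and MRPS18C (-0.35) fell at 8 h, and PTCD3 did not pass (-0.13). Their median was -0.08. Of 27 genes of ribosome assembly and rRNA modification, 10 fell and 3 rose at 8 h (median -0.21). The falls with the smallest adjusted p were those of FASTKD2 (-1.04), the rRNA methyltransferase MRM2 (-0.66), the pseudouridine synthase RPUSD4 (-0.66) and NGRN (-0.70), and RCC1L was the most abundant that did not pass (-0.36). Of 15 mitochondrial translation factors and mRNA-handling proteins, 8 fell and 2 rose at 8 h (median -0.51). Among the fallen were LRPPRC (-1.33), which stabilizes mitochondrial mRNAs, the release factor MTRF1L (-1.22), the initiation factor MTIF2 (-0.74) and GFM2 (-0.94). TUFM, an abundant elongation factor, had -0.12 and did not pass (edgeR adjusted p = 0.564). At 24 h, 5 of the 27 and 4 of the 15 fell and 1 of the 27 rose, where 13.8% of all genes fell and 13.7% rose.

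Of 13 genes of mitochondrial DNA transcription and maintenance, 7 fell and 1 rose at 8 h (median -0.43). The helicase TWNK fell by 2.20 and the transcription factor TFB2M by 1.55 on the log2 scale. TFAM, which packages mitochondrial DNA and takes part in its transcription, fell by 1.33. MTERF2 rose by 1.81, and the polymerase POLG had -0.10 and did not pass. Of 10 regulators of mitochondrial biogenesis, 4 fell and 1 rose at 8 h (median -0.09). MYC had log2 fold changes of -3.29, -3.30, -3.58, -1.13 and -0.68 at 2, 4, 8, 24 and 48 h and passed at all but 48 h (edgeR adjusted p = 0.086). PPRC1, a coactivator of the PGC-1 family, had -0.71, -1.13, -1.42, -0.40 and -0.33 and passed at 2, 4 and 8 h. GABPB1 (-1.06) and GABPA (-0.54), subunits of the ETS factor GABP, fell at 8 h, GABPB2 rose (0.45), and YY1 did not pass (-0.17). Of 10 genes of MAPK pathway output, the numbers fallen at the 5 times were 8, 9, 10, 6 and 2.

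The mRNAs of the mitochondrial genome went the other way. Of the 13 mitochondrially encoded mRNAs, 9, 13, 12 and 1 rose at 2, 8, 24 and 48 h (13.4, 20.6, 13.7 and 5.52% of all genes rose). None of the 13 passed at 4 h by edgeR, where 0 had an unadjusted p under 0.05 and 6.74% of all genes rose. All 13 had log2 fold changes above 0 at all 5 times. Their share of counts was 15.3 to 20.5% at 8 h and 10.3 to 27.0% at 24 h, against 6.13 to 8.77% in vehicle tumors. The 2 mitochondrial rRNAs, MT-RNR1 (0.37) and MT-RNR2 (0.61), did not pass at 8 h, and poly(A) selection limits what their counts mean. With mitochondrially encoded genes left out of the table, 42 of the 77 ribosomal protein genes fell at 8 h and 40 at 24 h (54.5 and 51.9%, against 22.4 and 14.5% of all genes).

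Marker sums, in CPM without TMM factors, also differed between the groups. Mitochondrially encoded mRNAs took a larger share of counts at 8 h than in vehicle tumors, and the part of that share in these sums was not tested. At 8 h the summed epithelial markers were 5769 to 9998 CPM, against 8683 to 12292 CPM in vehicle tumors, and 2 of the 8 rose and 2 fell. The 10 fibroblast markers summed to 1324 to 5266 CPM at 8 h, against 1024 to 2028 CPM in vehicle tumors, and 0 of the 10 passed in either direction by edgeR. The 7 myeloid markers summed to 263 to 390 CPM at 8 h, against 481 to 741 CPM in vehicle tumors, with no overlap, and 1 rose and 2 fell. LYZ (median 412 CPM over all tumors) and CD68 (97.3) made most of this sum, and the next highest was CSF1R (7.72). The median log2 fold change of the 7 at 8 h was 0.42, above 0, and the cells these mRNAs came from were not tested. Of 8 tested muscle, fat and blood markers 1 rose, and of 5 tested endothelial markers 0 passed, while no lymphocyte marker had enough counts to be tested. At 4 h 3 of the 10 fibroblast markers rose (6.74% of all genes did), and at 48 h 4 of the 8 epithelial markers rose (5.52%). The 4 h tumor 2 held 29507 CPM of the fibroblast markers, while the other 4 h tumors held between 917 and 2968. The part of all these markers in the falls was not tested beyond leaving out tumors. With the 3 tumors that stood apart left out together, a setting chosen after the data were seen, 29, 9, 46, 41 and 22 of the 77 genes fell at 2, 4, 8, 24 and 48 h (37.7, 11.7, 59.7, 53.2 and 28.6%, against 18, 9.8, 26.3, 12.2 and 6.61% of all genes).

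Scaling moved the balance of calls at some times. Upper-quartile scaling in place of TMM put the median log2 fold change of all genes at 0.21 at 8 h, 0.15 at 24 h and 0.13 at 2 h. With that scaling 38 of the 77 genes fell and 7 rose at 8 h, 32 fell and 0 rose at 24 h, and 24 fell and 4 rose at 2 h. Over all genes it gave 3371 falls and 4732 rises at 8 h, where TMM gave 4328 and 3755, and at 24 h 2050 falls and 3077 rises, where TMM gave 2518 and 2493. At 8 h against 4 h it gave 17 falls and 6 rises among the 77, where TMM gave 24 and 4. At 24 h against 8 h it gave 1 fall and 3 rises, RLE scaling gave 2 and 3, and TMM 0 and 3. At 4 h against 2 h the counts were 4 falls and 7 rises with RLE scaling and 3 and 7 without mitochondrially encoded genes, where TMM on all genes gave 4 and 3.

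The 23 genes called at no time against vehicle had log2 fold changes between -0.48 and 0.41. They included MRPL23 (0.41 at 8 h, edgeR adjusted p = 0.0748) and MRPS21 (0.36 at 8 h, edgeR adjusted p = 0.0504), in both of which the lowest 8 h tumor exceeded the highest vehicle tumor, as it did for 20.4% of all genes. The 45 genes not described singly by the rule used here ran between -1.08 and 0.36 over the 5 times, and 57 of the 77 had a log2 fold change below 0 at all of them. The 5 comparisons share the same vehicle tumors, so these signs are not independent of one another. The shares of all genes called at no time, or below 0 at all 5, were not counted.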

How the data were processed

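Estimated counts and TPM per gene were deposited by the authors, who quantified reads with Salmon 0.14.1 against GRCh38.p13, per the submitters' processing notes, with bcl2fastq 2.17 and FastQC 0.12.1 named there too; how mouse reads were handled is not given in the sources used here. Gene IDs were matched to GENCODE 29 symbols for 57972 of 60230 rows, and the other 2258 rows hold 0.0960% of counts. Estimated counts were rounded to whole numbers, filtered with edgeR's filterByExpr, scaled by TMM and fitted in edgeR 4.0.16 (R 4.3.3) with 1 robust quasi-likelihood model of 6 groups over 24 tumors, and p-values were adjusted by Benjamini-Hochberg over 18242 genes. CPM carry the TMM factors, and log2 CPM a prior count of 2. The fit was tested on simulated data. Totals of 10.5 to 20.6 M counts (M, 1e6) per tumor limit the precision of the scarcest genes.

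Alternatives were DESeq2 1.42.0, limma-voom (limma 3.58.1), RLE and upper-quartile scaling, no mitochondrially encoded genes, no filter or a stricter one (at least 1 CPM in 12 tumors), limma on log2(TPM + 1) and log2(TPM + 0.1), fits of just the 2 groups at hand, replicate number as a block, leaving out each tumor, and 2 settings added after the data were seen.

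The members, gene lists and tests were chosen with earlier results of these data known. Genes named singly are the 5 largest called falls and rises at each time (mean log2 CPM of at least 3), the 3 largest called changes between neighbouring times, the 3 most and 3 least abundant, and 12 chosen for their roles, which made 32 genes. MRPL27 and MRPS21 are named outside that rule, after their values were seen, as are genes named for a motif. From the lists, up to 4 called genes of lowest adjusted p are named, and the most abundant gene that missed the threshold; GABPB2 is named beyond these, after its values were seen. Replicates are separate animals. The YY1 and NRF1 motifs were shortened to 9 and 8 letters after longer forms had been counted.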

Additional observations from a re-analysis of the deposited data

Results flagged for a closer look

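Single tumors stood far from the other 3 of their group in 7 of 198 groups of 4 values examined, where chance gives about 1 in 20. On the log2 CPM scale these were MRPS10 in 2 h tumor 4 (4.38), MRPL50 in 2 h tumor 2 (3.62), MRPS31 in 4 h tumor 2 (2.64), MRPS12 in 8 h tumor 3 (3.20), MRPS18A in 24 h tumor 1 (3.42) and MRPL10 in 48 h tumor 1 (4.06). The mean over all 77 genes stood apart in 24 h tumor 3 (4.72, above the other 3). The 4 h tumor 2 is the one rich in fibroblast mRNA and the 24 h tumor 1 the one rich in mitochondrially encoded mRNA, and their part in these values was not tested.

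Differences between neighbouring IK-595 times passed edgeR's test of the difference itself (adjusted p under 0.05) for the genes named in the report. At 4 h against 2 h the log2 fold changes were -0.91 for MRPS6, -0.78 for MRPL41, -0.65 for MRPL55, 0.58 for MRPL45, 0.49 for MRPS16 and 0.41 for MRPL35. At 8 h against 4 h they were -1.23 for MRPL3, -1.03 for MRPS10, -0.97 for MRPL33, 1.05 for MRPL41, 0.71 for MRPL55 and 0.64 for MRPL23. At 24 h against 8 h they were 0.70 for MRPL3, 0.63 for MRPS17 and 0.55 for MRPS23, and at 48 h against 24 h 0.90 for MRPS6. With the GC and length trend removed the 8 h against 4 h values were 0.24 for MRPL41, 0.39 for MRPL55 and 0.15 for MRPL23, and none of these 3 passed (edgeR adjusted p = 0.0991, 0.0923 and 0.379).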

How the results depend on the processing

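The falls against vehicle at 2, 8 and 24 h stayed within 1.5 times the counts given under the 11 other settings chosen at the outset. Small counts moved. DESeq2 gave 4 rises at 2 h, 6 rises at 8 h and 19 falls at 48 h, and 11 rises at 4 h against 2 h, 2 falls at 24 h against 8 h and 2 rises at 48 h against 24 h. Limma-voom gave 2 rises at 2 h and 5 at 4 h against 2 h. RLE scaling gave 2 rises at 2 h, 7 at 4 h against 2 h, and 2 falls at 24 h against 8 h, and upper-quartile scaling 4 rises at 2 h, 7 at 8 h and 1 fall at 24 h against 8 h. Without a filter there were 0 rises at 2 h, 6 falls at 4 h, 1 rise at 8 h, 5 falls at 48 h, 2 falls at 4 h against 2 h and 1 rise at 24 h against 8 h. The stricter filter gave 4 rises at 2 h, 6 at 8 h, 7 at 4 h against 2 h and 2 falls at 24 h against 8 h. With only the 2 groups compared there were 2 rises at 2 h, 4 falls at 4 h, 6 rises at 8 h, 20 falls at 48 h, 8 rises and 2 falls at 4 h against 2 h, 14 falls at 8 h against 4 h and 0 rises at 24 h against 8 h. Log2(TPM + 1) gave 3 falls at 4 h, 1 rise at 8 h, 4 falls at 48 h, 8 rises and 1 fall at 4 h against 2 h, and 1 rise at 8 h against 4 h, and log2(TPM + 0.1) the same but 6 rises at 4 h against 2 h. MRPL34 at 8 h turned to -0.01 on both TPM scales. Without mitochondrially encoded genes 7 genes rose at 4 h against 2 h. Of 2 settings chosen after seeing the data, leaving out the 3 tumors that stood apart gave 5 rises at 2 h, 1 at 4 h, 5 at 8 h, 22 falls at 48 h, 8 rises and 7 falls at 4 h against 2 h, and 11 rises and 5 falls at 24 h against 8 h. Removing the GC and length trend gave 1 rise at 24 h, 7 rises and 1 fall at 24 h against 8 h, and 2 rises at 48 h against 24 h. Causes were not tested.

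Replicate numbers were not taken as pairs. Of 60 same-numbered pairs of tumors from different groups, 20 correlated over 0.1, and the mean correlation was -0.013. Differently numbered pairs were not compared, so these values cannot show whether the tumors were paired. The replicate block gave 26, 7, 43, 37 and 9 falls at 2, 4, 8, 24 and 48 h, and 2 falls at 4 h against 2 h. Leaving out 1 tumor of the groups compared gave 0 to 3 rises and 19 to 35 falls at 2 h, 0 rises and 3 to 8 falls at 4 h, 1 to 3 rises and 38 to 46 falls at 8 h, 0 to 1 rises and 26 to 45 falls at 24 h, and 0 rises and 1 to 20 falls at 48 h. Between neighbouring times it gave 0 to 6 rises and 1 to 6 falls at 4 h against 2 h, 2 to 5 and 14 to 27 at 8 h against 4 h, 0 to 10 and 0 to 3 at 24 h against 8 h, and 0 to 5 and 0 at 48 h against 24 h. Over tumors of any group the ranges widened to 10 falls at 4 h, 5 rises at 8 h, 10 rises at 4 h against 2 h and 29 falls at 8 h against 4 h. Totals of 10.5 to 20.6 M counts limit calls on the scarcest genes.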
